A study of Mus musculus with 4 samples.

Results

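The 43 genes described here encode basement membrane and interstitial matrix proteins and the integrin chains that bind them. They are a list of gene symbols, and all 43 were found once each among the 31055 genes of the count tables. By role they comprise 6 interstitial glycoproteins and proteoglycans, 7 laminin chains, 5 nidogens and basement membrane proteoglycans, 8 fibrillar and type VI collagen chains, 4 type IV collagen chains, 8 integrin alpha chains and 5 integrin beta chains. Each gene was followed across the cell classes of the E8.5 mouse caudal embryo and in both genotypes, with cells of epithelial character kept apart from mesenchymal cells.

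A basement membrane is the sheet of matrix on which an epithelium rests. Laminin trimers, made of an alpha, a beta and a gamma chain, form one network in it and type IV collagen trimers another, and nidogens, perlecan (*Hspg2*) and agrin (*Agrn*) connect the networks. Fibronectin, fibrillins, versican and the fibrillar collagens fill the space between mesenchymal cells, and integrins, each a pair of an alpha and a beta chain, link both kinds of matrix to the cytoskeleton. In the closing neural tube the neuroepithelium and the surface ectoderm lie on such sheets above the paraxial mesoderm, and fibronectin with its receptor integrin alpha5 beta1 is known for its part in somite formation.

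Caudal tissue of the embryo at E8.5 was profiled cell by cell in 4 libraries. WT libraries 1 and 2 came from a single pool of 5 embryos, and *Grhl3*-null libraries 1 and 2 from a single pool of 3 embryos that lacked *Grhl3* in every cell. All embryos came from intercrosses of heterozygous mice on a C57BL/6 background and were dissociated with trypsin. Since each genotype is 1 pool, every p-value below compares 2 pools with the spread between reactions and holds no spread between embryos.

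After filtering, 20198 cells remained, with 209833527 to 226723903 UMIs per library and medians of 33391 to 38070 UMIs per cell. Levels are given as UMIs per 1000000 UMIs (CPM) of the summed cells, with SD over the 2 libraries of a genotype, and since the kit counts 3′ ends of transcripts they are not divided by gene length. *Grhl3* itself was at 8.58 and 8.13 CPM in the epithelial cells of the WT libraries and at 0.131 and 0.143 CPM in those of the *Grhl3*-null libraries, so the libraries matched their labels. Clusters were made without the 43 genes and named from other markers, and a name such as gut-like means only that these markers lead. Of 17 clusters, 5 were epithelial (1763 to 2008 cells per library), 8 were mesenchymal (2445 to 3237 cells), and endothelium-like, erythroid-like, notochord-like and primordial germ cell-like clusters were neither. A list of 6 epithelial genes outside the 43 summed to 816 and 796 CPM in the epithelial cells of WT libraries and to 218 and 209 CPM in mesenchymal cells, whereas 6 mesenchymal genes summed to 157 and 156 against 481 and 469 CPM. The epithelial sum came mainly from gut-like (2536 and 2532 CPM in WT) and surface ectoderm/NPB-like cells (NPB, neural plate border; 2377 and 2396 CPM). Neuroepithelium-like (28.9 and 22.9 CPM) and neuromesodermal progenitor-like cells (75.9 and 79.2 CPM) had less of it than some mesenchymal clusters, such as one led by *Nkx2-3*, *Runx1t1* and *Hlx* (765 and 778 CPM), and count as epithelial by their own markers and not by this list. The pools were not alike in composition. The pre-somitic mesoderm-like class held 989 WT and 7 *Grhl3*-null cells, and male cells made up 26.5% and 27.0% of the cells of known sex in WT but 55.6% and 57.5% in *Grhl3*-null libraries. The cell filter kept 88.2% and 89.8% of the droplets of WT libraries and 78.4% and 77.4% of those of *Grhl3*-null libraries. Genotype and these differences between pools cannot be told apart.

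Members were counted as higher in epithelial or in mesenchymal cells where they were at least 2-fold higher in all 4 libraries (0.1 CPM was added to both before a ratio was taken). Of 36 members with at least 1 CPM in either source, 9 were higher in mesenchymal cells in this sense, 6 were higher in epithelial cells and 21 were neither. The same rule held for 2.74% of 12396 genes in the mesenchymal direction and for 7.15% in the epithelial direction. The mesenchymal group comprised *Col3a1*, *Itga8*, *Col1a1*, *Col1a2*, *Lama4*, *Itga4*, *Nid1*, *Fbn2* and *Itga1*. The epithelial group comprised *Itga6*, *Itga3*, *Col18a1*, *Lama5*, *Col4a5* and *Col4a6*. The other 7 members, *Lama2*, *Col6a1*, *Col6a2*, *Tnc*, *Itga2*, *Itgb3* and *Itgb4*, had a mean under 1 CPM in both. These are descriptions of clusters of the same cells and carry no test. The median log2 ratio of mesenchymal to epithelial levels was 0.10 over the 36 members and -0.02 over all genes.

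Single classes often exceeded both sources. Among the 14 classes with at least 50 cells in each WT library, the endothelium-like class had the highest WT mean for 13 members, the notochord-like class for 8 and the surface ectoderm/NPB-like class for 5. The cluster led by *Nkx2-3*, *Runx1t1* and *Hlx*, which no marker list named, had the highest mean for 7. The WT libraries of the highest class did not overlap those of the next class for all 13 members of the endothelium-like class, all 5 of the surface ectoderm/NPB-like class, 5 of the 7 and 4 of the 8. *Lama2*, *Lamb1*, *Lamb2* and *Itgav* overlapped between notochord-like cells and the next class. Neither the highest class nor this overlap was counted over all genes, so these counts do not set the members apart from other genes. The members summed to 3291 ± 14.2 CPM in endothelium-like cells of WT libraries, to 2123 ± 25.9 CPM in gut-like cells and to 1562 ± 17.0 CPM in surface ectoderm/NPB-like cells (SD, n = 2). In erythroid-like cells, taken as a gauge of RNA carried over from other cells, they summed to 257 ± 94.6 CPM. For single members this gauge can be too high. In WT libraries *Col1a2* was at 8.89 CPM in erythroid-like and at 3.38 ± 0.736 CPM in neuroepithelium-like cells. *Itga4* was at 7.18 ± 0.901 CPM in erythroid-like cells and at 2.21 ± 0.0228 CPM over all cells.

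**Figure D1:**
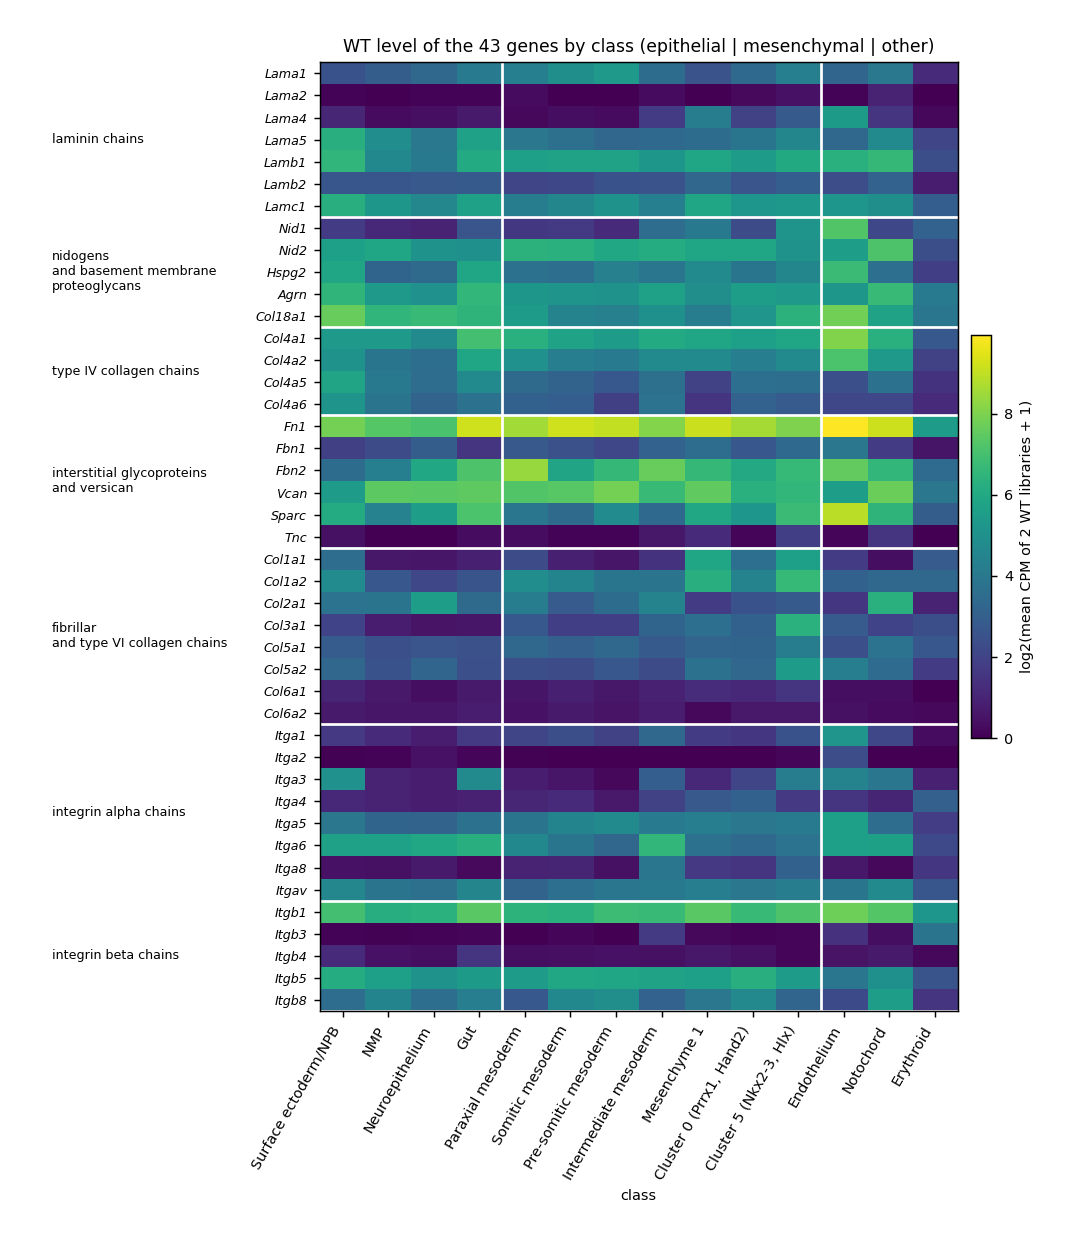
Levels of the 43 genes by class, as log2 of the WT mean CPM plus 1, with genes ordered by role and classes by source. The endothelium-like column is high for *Fn1*, *Sparc*, *Col4a1* and *Nid1*, the surface ectoderm/NPB-like column for *Lama5*, *Col4a5* and *Col4a6*, and the erythroid-like column is low for most genes.

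*Fn1*, the gene of fibronectin, was abundant in both sources and higher in the mesenchyme. Its level in epithelial cells was 234 and 227 CPM in the WT libraries and 263 and 270 CPM in the *Grhl3*-null libraries. In mesenchymal cells it was 419 and 429 CPM in WT and 377 and 371 CPM in *Grhl3*-null libraries. All 4 mesenchymal values lay above all 4 epithelial values, by under 2-fold within each library. By class, *Fn1* reached 978 ± 57.4 CPM in endothelium-like, 593 ± 2.54 CPM in somitic mesoderm-like and 590 ± 5.93 CPM in gut-like cells of WT libraries, and was lowest outside the erythroid-like class and 2 clusters of low UMI counts in neuroepithelium-like cells, at 136 ± 0.339 CPM.

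*Vcan* encodes versican, a large proteoglycan that binds hyaluronan. Its levels differed little between the sources, with 153, 148, 152 and 151 CPM in epithelial cells of WT 1, WT 2, *Grhl3*-null 1 and *Grhl3*-null 2 and 135, 131, 128 and 126 CPM in mesenchymal cells. Surface ectoderm/NPB-like cells stood apart within the epithelium, at 43.9 ± 5.93 CPM against 167 ± 1.98 CPM in neuroepithelium-like cells. *Fbn2*, a fibrillin of embryonic microfibrils, was higher in mesenchyme, with 132, 124, 160 and 160 CPM against 47.2, 47.5, 58.4 and 63.0 CPM in epithelial cells of the same libraries. Paraxial mesoderm-like cells had the most *Fbn2* (340 ± 15.1 CPM in WT) and surface ectoderm/NPB-like cells 10.3 ± 1.49 CPM, which is no more than the 10.2 ± 5.87 CPM of erythroid-like cells. *Sparc*, a collagen-binding glycoprotein of basement membranes, was highest in endothelium-like cells (474 ± 51.9 CPM), and *Tnc*, tenascin C, had a mean under 3 CPM in every class of WT libraries.

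Laminin chains divided by layer. The beta and gamma chains common to most laminins were present on both sides. *Lamb1* measured 40.0, 37.0, 47.8 and 51.1 CPM in epithelial cells (WT 1, WT 2, *Grhl3*-null 1, *Grhl3*-null 2) and 50.3, 47.3, 50.2 and 46 CPM in mesenchymal cells. *Lamc1* measured 41.2, 41.3, 42.2 and 47 CPM and 28.7, 28.0, 33.7 and 31.5 CPM in the same order. The alpha chain, which carries most integrin binding sites of a laminin, separated the layers. *Lama5* was at 35.7, 34.4, 38.3 and 39.7 CPM in epithelial cells and at 13.5, 13.4, 15.2 and 15.5 CPM in mesenchymal cells, so the sources did not overlap. *Lama1* showed the opposite order, with 8.83, 8.02, 10.8 and 11 CPM in epithelial and 20.5, 20.1, 16.1 and 15.2 CPM in mesenchymal cells.

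As a share of laminin alpha chain UMIs in WT, *Lama5* made up 18.3% ± 1.80 in pre-somitic mesoderm-like cells, 60.8% ± 1.27 in neuroepithelium-like cells, 74.5% ± 0.967 in gut-like cells and 92.6% ± 0.567 in surface ectoderm/NPB-like cells. *Lama1* had the opposite order among these classes, with 5.91% ± 0.547 in surface ectoderm/NPB-like cells, 71.5% ± 0.873 in somitic and 81.2% ± 2.08 in pre-somitic mesoderm-like cells. *Lama4*, the alpha chain of vessel walls, made up 69.7% ± 3.88 in endothelium-like cells and 53.2% ± 2.02 in Mesenchyme 1-like cells, and at most 13.0% in the other classes with at least 50 cells per WT library. The WT mean of *Lama2* did not exceed 1 CPM in any class.

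**Figure D2:**
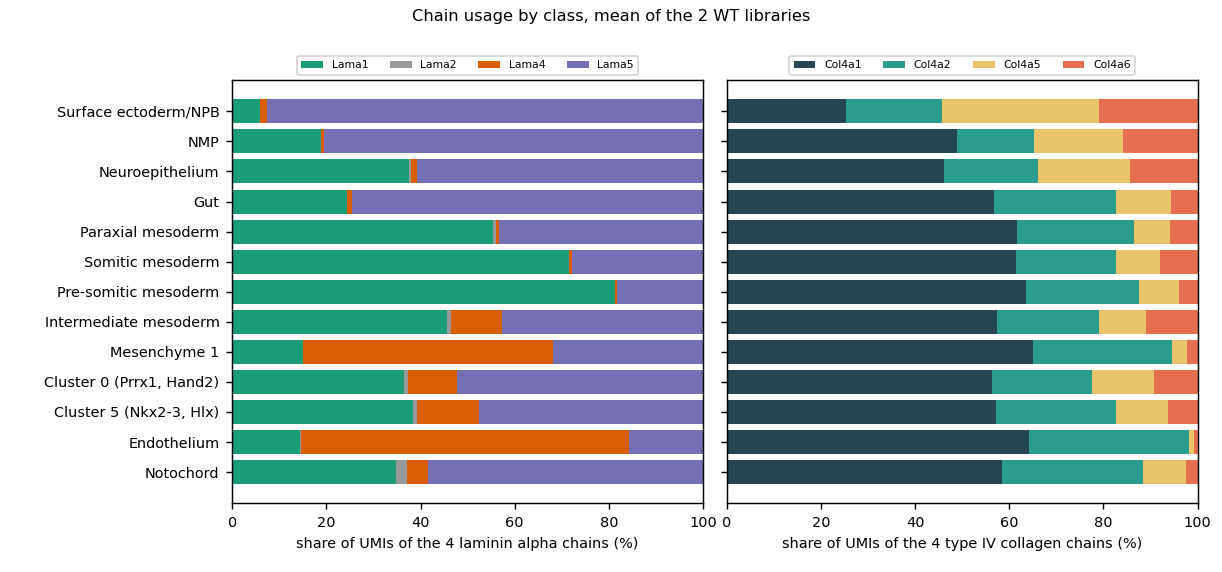
Share of each chain among the UMIs of its group by class, for laminin alpha chains (left) and type IV collagen chains (right), as the mean of the 2 WT libraries in percent, stacked to 100. The *Lama5* part is largest in surface ectoderm/NPB-like cells (92.6%), the *Lama1* part in pre-somitic mesoderm-like cells (81.2%) and the *Lama4* part in endothelium-like cells (69.7%).

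The linkers of the networks followed no single layer. *Col18a1*, the core of the proteoglycan collagen XVIII from which endostatin is cut, was the most abundant of them and epithelial, at 110, 109, 125 and 125 CPM against 36.5, 35.5, 49.6 and 51.8 CPM in mesenchymal cells. *Agrn* measured 53.4, 53.8, 65.3 and 65.4 CPM in epithelial and 37.3, 39.3, 42.6 and 43.2 CPM in mesenchymal cells. *Nid2* measured 44.7, 45.3, 48.7 and 48.2 CPM in epithelial and 64.7, 63.7, 64.0 and 62.5 CPM in mesenchymal cells. The nidogens were used by different classes. *Nid1* was 76.8% ± 0.669 of nidogen UMIs in endothelium-like cells and 50.9% ± 2.01 in the *Nkx2-3* and *Hlx* cluster, and 2.91% ± 0.903 in neuroepithelium-like cells, where *Nid2* made up the rest. *Hspg2* was highest in endothelium-like cells (108 ± 7.59 CPM) and reached 57.5 ± 0.319 CPM in surface ectoderm/NPB-like and 57.2 ± 3.95 CPM in gut-like cells.

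The fibrillar collagen genes were higher in mesenchymal than in epithelial cells in every library, apart from *Col2a1*. *Col1a2*, a chain of type I collagen, measured 8.10, 8.08, 9.88 and 11.1 CPM in epithelial cells and 31.0, 31.9, 52.4 and 51.4 CPM in mesenchymal cells. Its partner *Col1a1* measured 2.22, 2.01, 3.19 and 5.11 CPM against 11.6, 10.2, 18.8 and 17.7 CPM, and *Col3a1*, type III collagen, 1.07, 0.827, 2.03 and 2.45 CPM against 13.6, 14.9, 23.1 and 24.0 CPM. *Col3a1* thus had the highest ratio of mesenchymal to epithelial levels of the counted members (mean log2 ratio 3.56, SD 0.33 over 4 libraries). *Col2a1*, type II collagen of notochord and cartilage, had 20.6, 20.5, 19.3 and 19.1 CPM in epithelial and 9.03, 8.74, 10.9 and 10.7 CPM in mesenchymal cells. Within the classes *Col2a1* was highest in notochord-like (77.9 ± 13.3 CPM) and neuroepithelium-like cells (46.2 ± 0.314 CPM) of WT libraries. *Col5a2*, a chain of type V collagen, measured 6.53, 5.83, 5.44 and 6.13 CPM in epithelial and 10.1, 10.4, 10.8 and 11.6 CPM in mesenchymal cells.

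Within the mesenchyme the interstitial collagens sat in few clusters. In the *Nkx2-3* and *Hlx* cluster of WT libraries *Col3a1* was at 80.1 ± 6.51 CPM and *Col1a2* at 98.8 ± 8.96 CPM, against 2.60 ± 0.656 and 21.3 ± 0.775 CPM in somitic mesoderm-like cells. *Col1a1* was highest in Mesenchyme 1-like cells (58.7 ± 4.47 CPM, over 65 and 40 cells) and the *Nkx2-3* and *Hlx* cluster (47.6 ± 0.855 CPM). In erythroid-like cells *Col3a1* was at 7.82 CPM in WT 1 and 0.504 CPM in WT 2, and *Col1a1* at 12.1 and 0.504 CPM. The levels of *Col3a1* and *Col1a1* over all epithelial cells fall within that range. Other classes had lower WT means, with *Col3a1* at 0.427 ± 0.185 CPM in neuroepithelium-like and *Col1a1* at 0.306 ± 0.433 CPM in notochord-like cells. *Col1a2* averaged 8.89 CPM in erythroid-like and 3.38 ± 0.736 CPM in neuroepithelium-like cells of WT libraries. Over all epithelial cells of the WT libraries it was at 8.10 and 8.08 CPM. The part of carried-over RNA in the epithelial levels of these genes was not tested.

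Type IV collagen is secreted as trimers, most often of *Col4a1* and *Col4a2* chains, and in some epithelia of *Col4a5* and *Col4a6* chains. The genes of each pair stand head to head. In mm10, *Col4a1* spans chr8:11198423-11312826 on the minus strand and *Col4a2* chr8:11312805-11449287 on the plus strand, so that their annotated starts lie 21 bases apart within the overlap of the genes. *Col4a6* (chrX:141165403-141474076, minus strand) and *Col4a5* (chrX:141475385-141689234, plus strand) start 1309 bases apart. The shared promoter is shown because the levels of *Col4a1* and *Col4a2* moved most closely together of all pairs of members. The 300 bases around the start of *Col4a2* (RefSeq, GRCm38, chr8:11312555-11312854, plus strand, 5′ to 3′) are given in lower case, with the 78 bases that also belong to the window around the start of *Col4a1* in capitals.

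*Col4a2*: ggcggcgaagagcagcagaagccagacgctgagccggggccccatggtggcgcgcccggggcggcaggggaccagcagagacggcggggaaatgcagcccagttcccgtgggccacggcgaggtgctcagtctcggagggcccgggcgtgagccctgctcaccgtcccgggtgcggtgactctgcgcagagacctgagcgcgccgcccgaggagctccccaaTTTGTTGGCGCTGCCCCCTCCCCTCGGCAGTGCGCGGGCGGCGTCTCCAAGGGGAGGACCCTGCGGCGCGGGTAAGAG

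This window is 73.7% G or C. Promoter windows of 300 bases were found in RefSeq for 31 of the 43 members (36 windows). The GC box core GGGCGG, searched on both strands, was in 28 of the 36 (77.8%), including that of *Col4a2*, and in 35.7% of 32851 windows of all genes. The Grainyhead motif, searched as AACNGGTT on both strands, was in none of the 36 and in 2.09% of all windows, and AACCGGTT, which it includes, was in none and in 0.146%. No match says only that these letters are not in these windows.

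*Col4a1* measured 50.6, 48.4, 67.6 and 67.7 CPM in epithelial cells and 57.5, 53.4, 67.4 and 62.5 CPM in mesenchymal cells of WT 1, WT 2, *Grhl3*-null 1 and *Grhl3*-null 2. *Col4a2* measured 23.0, 22.0, 33.2 and 33.6 CPM and 22.7, 20.1, 26.7 and 24.0 CPM. Neither gene separated the sources. *Col4a5* did, with 21.1, 22.3, 29.2 and 29.2 CPM in epithelial and 8.92, 9.54, 12.1 and 12.6 CPM in mesenchymal cells, and so did *Col4a6*, with 14.3, 15.1, 18.0 and 18.6 CPM against 6.75, 6.58, 8.93 and 9.20 CPM. In surface ectoderm/NPB-like cells of WT libraries *Col4a5* made up 33.4% ± 2.24 and *Col4a6* 20.8% ± 2.45 of type IV collagen UMIs. In endothelium-like cells, where *Col4a1* reached 261 ± 9.48 CPM, the same shares were 1.07% ± 0.159 and 0.804% ± 0.20.

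Across the 14 classes the WT levels of *Col4a1* and *Col4a2* had a Pearson correlation of 0.976 on the log2 scale, the highest of 903 pairs of members. *Col4a5* and *Col4a6* had 0.93, the fifth highest, and *Col4a5* with *Lama5* 0.954, the second highest. *Nid1* and *Nid2*, whose products are alike, had -0.13. These are descriptions over 14 points taken from the same libraries.

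**Figure D3:**
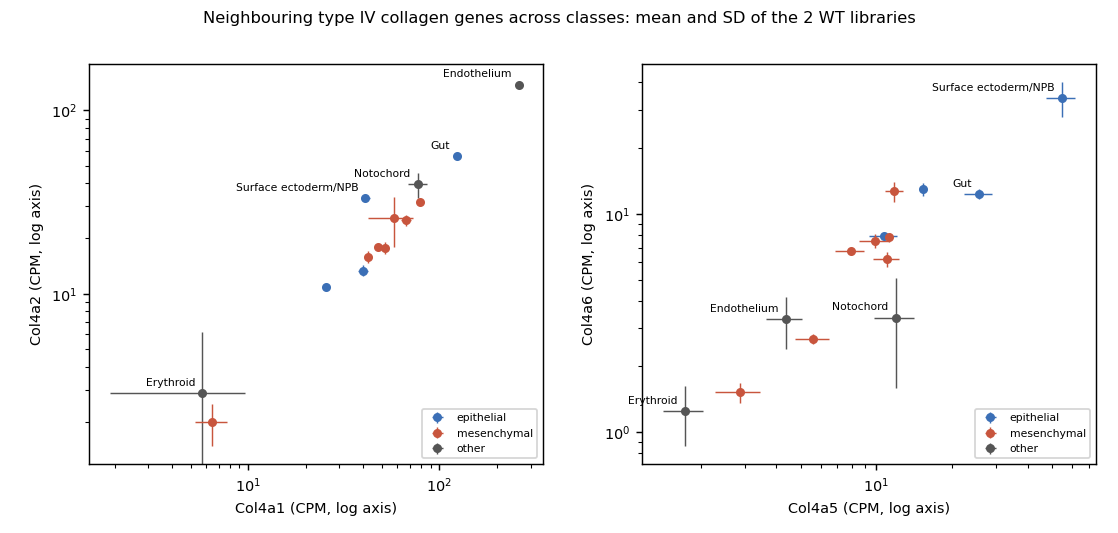
WT mean CPM of *Col4a1* against *Col4a2* and of *Col4a5* against *Col4a6* in 14 classes, on log axes, with points coloured by source and bars for the SD. Both pairs rise together (Pearson correlation 0.976 and 0.93), with endothelium-like cells at the top of the first and surface ectoderm/NPB-like cells at the top of the second.

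Of the integrin alpha chains, the laminin-binding *Itga6* and *Itga3* were higher in epithelial cells. *Itga6* measured 55.9, 56.5, 64.9 and 66.4 CPM in epithelial and 17.2, 15.9, 22.6 and 23.4 CPM in mesenchymal cells, and *Itga3* 9.65, 9.32, 13.4 and 14.0 CPM against 3.45, 3.58, 3.44 and 4.1 CPM. Their epithelial classes differed. *Itga3* was at 31.3 ± 2.11 CPM in surface ectoderm/NPB-like and 26.1 ± 2.53 CPM in gut-like cells of WT libraries but at 0.672 ± 0.0964 CPM in neuroepithelium-like cells, under the 0.903 CPM of erythroid-like cells. *Itga6* was high in all 3 and highest in intermediate mesoderm-like cells, at 93.9 ± 22.6 CPM.

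The fibronectin receptor chain *Itga5* measured 9.49, 9.83, 11 and 10.9 CPM in epithelial and 16.9, 17.8, 16.2 and 16.5 CPM in mesenchymal cells. Its share of integrin alpha UMIs in WT was 49.3% ± 2.32 in pre-somitic and 40.2% ± 0.491 in somitic mesoderm-like cells and 9.74% ± 0.502 in neuroepithelium-like cells. Across the 14 classes its WT level followed that of *Fn1* with a Pearson correlation of 0.872, the sixteenth highest of the 903 pairs. *Itgav*, which binds fibronectin and vitronectin, measured 15.4, 16.1, 17.6 and 18.0 CPM in epithelial and 12.6, 12.7, 13.9 and 13.9 CPM in mesenchymal cells. *Itga4* and *Itga8* were low in epithelial cells (0.924 ± 0.0331 and 0.396 ± 0.0341 CPM in WT) and reached their highest WT means in a mesenchymal cluster led by *Prrx1*, *Hand2* and *Foxf1* (7.38 ± 0.114 CPM) and in intermediate mesoderm-like cells (13.9 ± 0.604 CPM). The *Itga4* values of the former overlapped with those of erythroid-like cells (7.18 ± 0.901 CPM).

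The 3 abundant beta chains differed by under 1.5-fold between the sources in each library. *Itgb1*, the partner of most alpha chains, measured 98.6, 94.4, 103 and 103 CPM in epithelial and 101, 98.3, 105 and 101 CPM in mesenchymal cells. *Itgb5* measured 46.2, 46.1, 43.2 and 40.9 CPM in epithelial and 56.8, 57.9, 49.0 and 47.9 CPM in mesenchymal cells, and *Itgb8* 16.7, 16.6, 17.0 and 17.5 CPM against 17.7, 18.5, 15.4 and 14.4 CPM. *Itgb4*, the partner of *Itga6* in hemidesmosomes, was highest in gut-like cells, with a WT mean of 1.78 CPM, and *Itgb3*, a platelet integrin chain, was highest in erythroid-like cells, at 13.1 ± 0.776 CPM.

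The first genotype comparison asked which members differed between *Grhl3*-null and WT epithelial cells. With edgeR's quasi-likelihood test on UMIs summed per library, calls required a change of at least 1.5-fold and an adjusted p (Benjamini-Hochberg, over all genes tested) under 0.05. Of 41 members tested, 3 were called, all higher in *Grhl3*-null cells, where 4.46% of 15632 genes were called. They were the fibrillar collagen genes *Col3a1* and *Col1a1* and the vascular laminin chain *Lama4*. *Col3a1* was at 1.07 and 0.827 CPM in WT and at 2.03 and 2.45 CPM in *Grhl3*-null epithelial cells (log2 fold change 1.19, SE 0.16, adjusted p = 0.000265). *Col1a1* was at 2.22 and 2.01 CPM against 3.19 and 5.11 CPM (0.92, SE 0.18, adjusted p = 0.00294) and *Lama4* at 0.462 and 0.408 CPM against 0.643 and 0.893 CPM (0.77, SE 0.23, adjusted p = 0.0268). The groups did not overlap for any of them, and all 3 were at most at 5.11 CPM in epithelial cells. Without *Grhl3*-null 2, *Col1a1* was at 0.56 on the log2 scale and *Lama4* had an adjusted p of 0.167, and *Col3a1* alone was called.

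Smaller differences were common. By adjusted p alone 21 members were higher and 2 were lower in *Grhl3*-null epithelial cells, 23 of 41, where 29.6% of all genes passed. Among the higher were all 4 type IV collagen chains (0.27 to 0.53), *Nid1* (0.49), *Itga3* (0.48), *Sparc* (0.34), *Lama1* (0.33) and *Lamb1* (0.32), and the lower were *Itgb5* (-0.18) and *Col2a1* (-0.14). The median log2 fold change of the 41 members was 0.20 and that of all genes 0.002. The makeup of the epithelial cells also differed. Gut-like cells numbered 278 and 242 in WT and 402 and 385 in *Grhl3*-null libraries, and neuroepithelium-like cells 507 and 468 against 607 and 649. Neuromesodermal progenitor-like cells numbered 841 and 785 against 716 and 671. How far the smaller differences moved with this makeup is not given here. Genes of the visceral endoderm, an extraembryonic epithelium, moved with genotype as well. Their 8 genes summed to 105 and 109 CPM in WT and 281 and 302 CPM in *Grhl3*-null epithelial cells, all 8 called higher, and the 5 genes of the parietal endoderm list to 13.0 and 13.5 against 22.3 and 24.8 CPM. Their part in the differences of the members was not tested.

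In mesenchymal cells 6 of 42 members tested were called, where 5.62% of 15678 genes were. Of these, 5 were higher in *Grhl3*-null cells. *Itga4*, a chain of the receptor for fibronectin and VCAM1, was at 3.03 and 3.08 CPM in WT and 5.99 and 5.42 CPM in *Grhl3*-null cells (log2 fold change 0.89, SE 0.07, adjusted p = 2.12e-05). *Col1a1* was at 11.6 and 10.2 CPM against 18.8 and 17.7 CPM (0.73, SE 0.06), *Col3a1* at 13.6 and 14.9 against 23.1 and 24.0 CPM (0.72, SE 0.04), *Col1a2* at 31.0 and 31.9 against 52.4 and 51.4 CPM (0.71, SE 0.03) and *Lama4* at 2.19 and 1.85 against 3.40 and 3.22 CPM (0.70, SE 0.10), with adjusted p-values of 1.61e-05, 2.64e-06, 1.34e-07 and 0.00061. In each case both *Grhl3*-null libraries lay above both WT libraries. In WT libraries *Itga4* was at 7.18 ± 0.901 CPM in erythroid-like cells and at 0.615 ± 0.16 CPM in pre-somitic mesoderm-like cells. Over all cells of WT libraries it was at 2.21 ± 0.0228 CPM, under its erythroid-like level. The part of carried-over RNA in its call was not tested. In male cells alone *Lama4* was at -0.49 and in female cells alone at 2.00, and the pools differ in the share of male cells. *Itgb3* was lower, at 0.144 and 0.136 CPM (18 and 17 UMIs) in WT and 0.0499 and 0.0452 CPM (6 and 5 UMIs) in *Grhl3*-null cells (-1.55, SE 0.39, adjusted p = 0.0128). Leaving out any 1 library ended this call (adjusted p 0.0501 to 0.0954 in edgeR), and DESeq2 called no member lower. By adjusted p alone 23 members were higher and 6 lower, 29 of 42, where 34.1% of all genes passed, and the median log2 fold change was 0.17.

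These calls moved with the makeup of the mesenchyme. Mesenchyme 1-like cells, in which *Col1a1* and *Lama4* are high, came to 65 and 40 cells in WT and 160 and 139 cells in *Grhl3*-null libraries. With each class drawn down to equal numbers in every library, *Itga4* (0.61), *Col3a1* (0.69) and *Itgb3* (-1.53) were still called, while *Col1a2* was at 0.57, *Col1a1* at 0.35 and *Lama4* at 0.27. Without the pre-somitic mesoderm-like class, *Itga4* (0.75), *Col1a2* (0.61) and *Itgb3* (-1.72) were called, and *Col3a1* (0.57), *Col1a1* (0.56) and *Lama4* (0.55) fell under 1.5-fold. In that fit 3.7% of 15575 genes were called. Of 7 endothelial genes tested over all mesenchymal cells, 3 were called higher, *Kdr*, *Cdh5* and *Cldn5*, and none lower (median log2 fold change 0.22). *Kdr* is also among the markers of Mesenchyme 1-like cells.

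**Figure D4:**
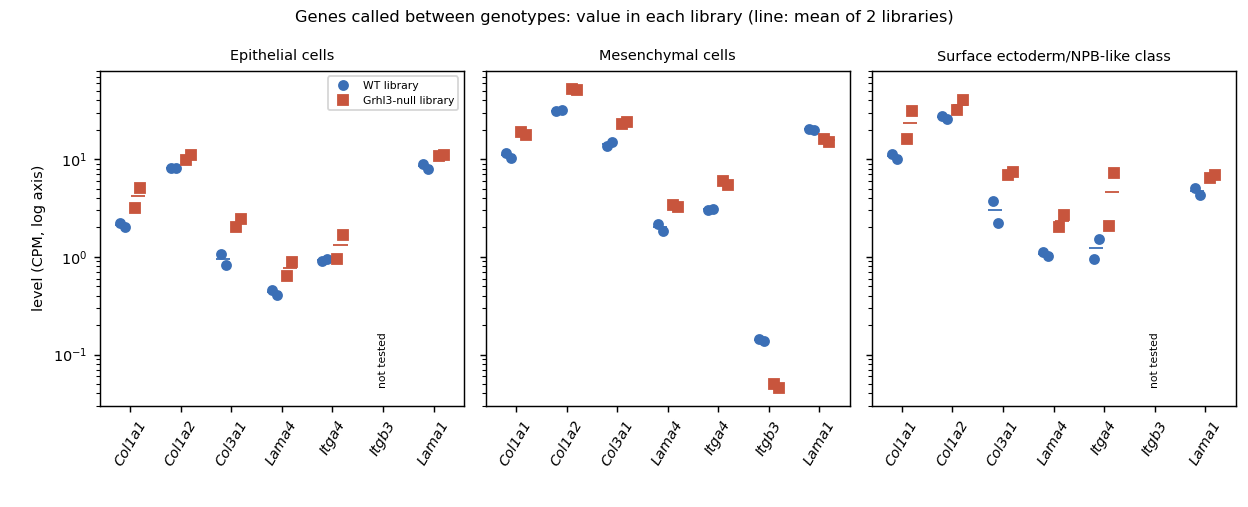
CPM of the members called in the epithelial, mesenchymal, surface ectoderm/NPB-like or interaction tests, on a log axis, with 1 point per library and a line at the mean of each genotype. In each panel both *Grhl3*-null points of a gene lie above both WT points, except for *Itgb3* and *Lama1* in mesenchymal cells, where they lie below.

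Whether the genotype difference itself was unlike between the sources was tested as an interaction over the 8 sums, with the library as a block. Of the 43 members 1 was called, *Lama1*, where 2.22% of 16343 genes were. *Lama1* was higher in *Grhl3*-null epithelial cells (8.83 and 8.02 against 10.8 and 11 CPM, log2 fold change 0.33) and lower in *Grhl3*-null mesenchymal cells (20.5 and 20.1 against 16.1 and 15.2 CPM, -0.39). The difference was 0.74 (SE 0.06, adjusted p = 5.6e-08), and in neither source did the genotypes overlap. By adjusted p alone 18 members differed between the sources, where 15.1% of all genes did, 13 toward the epithelial side, among them *Col3a1* (0.49), *Itga3* (0.42), *Fn1* (0.38) and *Lamb1* (0.37), and 5 toward the mesenchymal side, *Col2a1* (-0.39), *Col1a2* (-0.36), *Col18a1* (-0.31), *Itga6* (-0.26) and *Col5a2* (-0.24).

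The lower *Lama1* level of *Grhl3*-null mesenchyme was not seen in every class. *Lama1* was highest in pre-somitic mesoderm-like cells (39.1 ± 1.42 CPM in WT), the class nearly confined to the WT pool, and next in somitic mesoderm-like cells, which numbered 1444 in WT and 738 in *Grhl3*-null libraries. Within somitic mesoderm-like cells it was at 29.98 and 30.1 CPM in WT and 31.9 and 32.1 CPM in *Grhl3*-null libraries (0.08, adjusted p = 0.353). In paraxial mesoderm-like cells it was lower in *Grhl3*-null libraries (18.1 and 18.5 against 14.2 and 14.9 CPM, -0.36, adjusted p = 0.00147). With equal numbers of each class in every library the interaction was 0.17 (adjusted p = 0.145), and without the pre-somitic mesoderm-like class 0.55, under 1.5-fold.

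**Figure D5:**
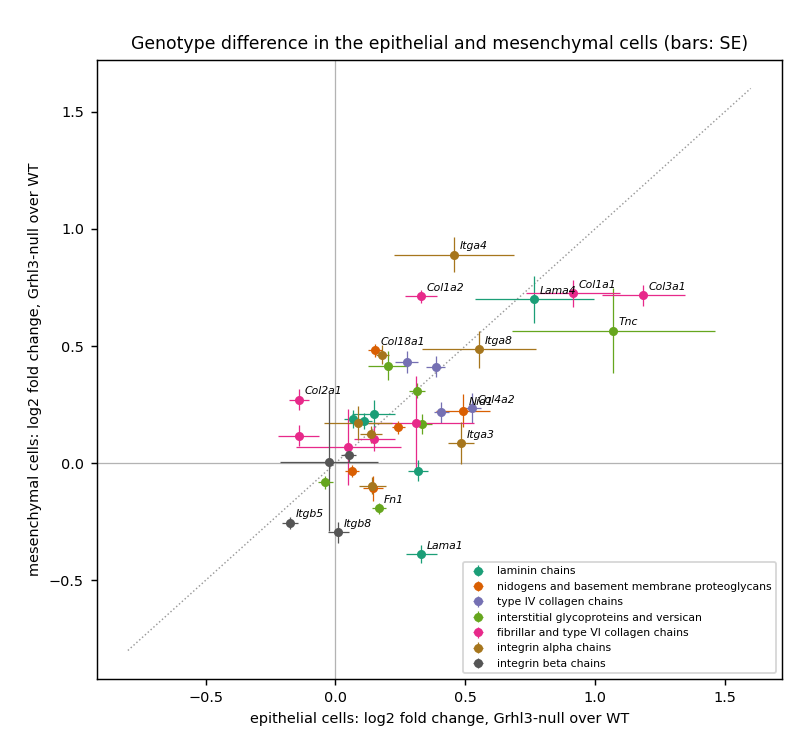
Log2 fold change of each member tested in both sources, *Grhl3*-null over WT, in epithelial cells (x axis) and mesenchymal cells (y axis), with SE bars, points coloured by role and a dotted line where both are equal. Most points lie above 0 on both axes, *Col3a1* and *Col1a1* far right, and *Lama1* lies at 0.33 and -0.39.

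Surface ectoderm/NPB-like cells, which hold the most *Grhl3* in WT (32.2 and 25.9 CPM, against 0.298 and 0.345 CPM in *Grhl3*-null libraries), were tested alone. Of 38 members 4 were called, all higher in *Grhl3*-null cells, where 3.63% of 12612 genes were called. Other lists moved with genotype in this class. Genes induced by dissociation summed to 183 and 172 CPM in WT and 128 and 127 CPM in *Grhl3*-null libraries (4 of 9 tested called lower, 1 higher), the visceral endoderm genes to 2.66 and 3.02 against 12.1 and 11.1 CPM (4 of 4 called higher) and the 6 epithelial genes to 2377 and 2396 against 1764 and 1998 CPM (5 of 6 lower at an adjusted p under 0.05, each by under 1.5-fold). The haemoglobin genes summed to 266 CPM in WT 1 and to 26.5, 31.8 and 33.7 CPM in the other libraries. Visceral endoderm and dissociation genes moved the same way in other classes too. In endothelium-like cells the former summed to 3.11 and 4.59 CPM in WT and 16.7 and 13.2 CPM in *Grhl3*-null libraries. The latter summed there to 470 and 447 against 409 and 391 CPM. The part of these lists in the members' calls in surface ectoderm/NPB-like cells was not tested. *Col3a1* was at 3.77 and 2.22 CPM in WT and 6.94 and 7.34 CPM in *Grhl3*-null cells (1.20, SE 0.22, adjusted p = 0.00125), and *Lama4* at 1.11 and 1.03 against 2.01 and 2.68 CPM (1.07, SE 0.33, adjusted p = 0.0389). *Itga4* was at 0.961 and 1.51 against 2.09 and 7.17 CPM (1.83, SE 0.46, adjusted p = 0.012) and *Col1a1* at 11.2 and 10.1 against 16.3 and 31.2 CPM (1.09, SE 0.21, adjusted p = 0.00166). For *Itga4* and *Col1a1* the *Grhl3*-null libraries differed from each other by more than *Grhl3*-null 1 differed from WT. Without *Grhl3*-null 2, *Itga4* was at 0.73 (adjusted p = 0.334), *Lama4* at 0.87 (adjusted p = 0.25) and *Col1a1* at 0.57, and DESeq2 called *Col3a1* alone. In erythroid-like cells of WT libraries *Col1a1* was at 12.1 and 0.504 CPM and *Itga4* at 7.18 ± 0.901 CPM. Over all cells of WT libraries *Itga4* was at 2.21 ± 0.0228 CPM. The part of carried-over RNA in these calls was not tested. The basement membrane chains in which this class is rich changed by less, with *Col4a5* at 0.43 (adjusted p = 0.000569) and *Col4a6* at 0.31 (adjusted p = 0.0392).

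The other tested classes had 0 to 5 calls each. Neuroepithelium-like cells had 5 of 37, where 5.92% of all genes were called. Both X-linked type IV collagen genes were among them, *Col4a5* at 9.76 and 11.7 CPM in WT and 20.4 and 19.6 CPM in *Grhl3*-null libraries (0.88, SE 0.09, adjusted p = 4.47e-06) and *Col4a6* at 7.90 and 7.85 against 12.8 and 11.5 CPM (0.60, SE 0.10, adjusted p = 0.000654). The others were low in this class, *Col3a1* (1.66), *Itga3* (1.05) and *Col1a2* (0.72). The WT mean of *Col1a2* here was 3.38 ± 0.736 CPM, under the 8.89 CPM of erythroid-like cells. The part of carried-over RNA in its call was not tested. In male cells alone *Col4a5* was at -0.01 and *Col4a6* at -0.48, and in female cells both were at 1.91. At a finer clustering, in which 364 cells led by *Gadd45a*, *Pax3* and *Foxd3* (89 of WT and 275 of *Grhl3*-null libraries) formed a cluster of their own, *Col4a6* was at -0.06 in this class.

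Gut-like cells had 3 of 38, where 4.23% of all genes were called. *Col4a2* was at 56.3 and 56.4 CPM in WT and 88.3 and 88.8 CPM in *Grhl3*-null libraries (0.62, SE 0.05, adjusted p = 5.93e-08). *Col4a1*, at 122 and 125 against 175 and 180 CPM, passed the test without reaching 1.5-fold (0.49, adjusted p = 5.3e-07). *Col3a1* (1.48) and *Col1a2* (0.72) were the others called. *Col1a2* averaged 8.89 CPM in erythroid-like cells of WT libraries, and the part of carried-over RNA in its call was not tested. The visceral endoderm genes summed to 602 and 660 CPM in WT and 1384 and 1381 CPM in *Grhl3*-null cells of this class, and their part in the rise of the type IV collagen genes was not tested.

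Paraxial mesoderm-like cells had 1 call of 38, *Col1a2*, at 30.01 and 26.9 CPM in WT and 48.5 and 49.0 CPM in *Grhl3*-null libraries (0.75, SE 0.05, adjusted p = 3.98e-07), where 3.09% of all genes were called. In female cells alone *Col1a2* was at -0.88 in this class with an adjusted p under 0.05 in edgeR, which meets the call rule in the opposite direction. Neuromesodermal progenitor-like cells had 1 of 39, *Col3a1* (1.00, adjusted p = 0.0494), where 1.92% were called, at 0.674 and 0.734 against 0.99 and 1.94 CPM, and without *Grhl3*-null 2 it was at 0.48. Intermediate mesoderm-like cells had 2 of 36, where 1.56% were called. *Col4a5* was at 12.5 and 11.1 CPM in WT and 18.0 and 20.3 CPM in *Grhl3*-null libraries (0.72, adjusted p = 0.027) and *Sparc* at 9.69 and 9.61 against 14.1 and 17.6 CPM (0.73, adjusted p = 0.0469). DESeq2 called neither (adjusted p = 0.854 and 1.00), and both calls ended in edgeR without WT 2 (0.0989 and 0.088) and without *Grhl3*-null 2 (0.152 and 0.305), that of *Sparc* also without WT 1 (0.106). None of 37 was called by edgeR in somitic mesoderm-like cells, where 1.43% of all genes were called, none of 37 in endothelium-like cells (0.341%) and none of 20 in erythroid-like cells (0.233%). At an unadjusted p under 0.05 these classes had 7, 6 and 0 members, and DESeq2 called none of them. *Col3a1*, called in the 4 epithelial classes, stayed at or under 7.34 CPM in each of their libraries. Erythroid-like cells had 7.82 CPM of it in WT 1 and averaged 4.16 CPM over the WT libraries. Its WT mean in neuroepithelium-like cells was 0.427 ± 0.185 CPM. The part of carried-over RNA in the *Col3a1* calls was not tested. In all, 16 of 320 class by member pairs were called, every one higher in *Grhl3*-null libraries and spread over 10 members, where 2.62% of 109402 pairs of all genes were called.

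A list of 127 other matrix and adhesion genes was read in the same fits. In epithelial cells 2 of 118 tested were called higher and 1 lower in *Grhl3*-null cells, where 4.46% of all genes were called. In mesenchymal cells 13 of 120 were called higher and 4 lower, where 5.62% of all genes were called. How far these calls moved with the makeup of the mesenchyme was not tested. The part of the list with the most calls in mesenchyme was the other interstitial matrix and proteoglycans, with 8 higher and 1 lower of 36. *Hapln1*, which ties versican to hyaluronan, was at 15.0 and 13.3 CPM in WT and 23.6 and 24.6 CPM in *Grhl3*-null mesenchymal cells (0.75, SE 0.05, adjusted p = 5.92e-06). *Mfap4*, a microfibril protein and a leading gene of the pre-somitic mesoderm-like class, was at 25.1 and 25.5 against 11.9 and 11.9 CPM (-1.10, SE 0.03, adjusted p = 2.86e-08). The interaction called 4 of 120 in each direction, where 2.22% of all genes were called.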

How the data were processed

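The authors aligned 10x 3′ libraries to mm10 using Cell Ranger, and the deposited files hold UMI counts of every gene in each droplet, before the study's own cell filters. The counts were used as deposited. Libraries were grouped by the genotype and number in their labels. Droplets with 3000 genes or more, 7500 UMIs or more and no more than 7% of UMIs from mitochondrial genes were taken as cells, which kept 20198 of 24239. Seurat 5.3.0 with sctransform 0.4.2 in R 4.3.3 clustered the merged cells (3000 variable features, 30 principal components, 20 neighbours, resolution 0.4), with the 43 members left out of the features, where 31 would have stood. Names were rebuilt from 236 markers of 16 cell types in the study's marker table, so clusters need not match those of the study. A name needed at least 3 markers among 30 leading genes and more than 1.5 times as many as any other type, and a source (epithelial, mesenchymal or other) needed the same over the types of that source. Scrublet in scanpy 1.11.5 marked at most 0.0627% of cells automatically, so doublets were kept, and the 5% highest scores were removed as an alternative.

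Sums of UMIs over the cells of a class in a library were tested with edgeR 4.0.16 (TMM, filterByExpr, quasi-likelihood), in 9 named classes with at least 50 cells in every library. On simulated data with 200 changed genes the fits recovered 200 in epithelial cells and 200 in mesenchymal cells. They recovered 196 in surface ectoderm/NPB-like cells and 192 for the interaction. Wrong calls numbered 3, 2, 10 and 3 in the same order. The planted changes were larger than that of any member called in the main fits and were not placed in genes with few UMIs. Recovery of genes changed by near 1.5-fold, or of genes with few UMIs, was not tested. Counts of libraries of 1 genotype differed by more than sampling noise (3.52 to 8.19 as chi-square over degrees of freedom), so they were kept as 2 libraries. Each library shared 27 to 37 cell barcodes with the others. Male cells had 2 or more Y-linked UMIs and up to 2 *Xist* UMIs, female cells 3 or more *Xist* UMIs and up to 1 Y-linked UMI. Positions were taken from GENCODE (mm10) and promoters from RefSeq (GRCm38.p6). Alternatives were DESeq2 1.42.0, RLE normalization, no filter, a replicate block, other fold minimums, resolution 0.8, clusters with the members, at most 5% mitochondrial UMIs, male or female cells alone, equal class composition and each library left out.

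Every member may be named. Values of each library are given for members called in the source, interaction or surface ectoderm/NPB-like tests and for the 3 most abundant of each role, and other matrix genes are named if called with a mean of at least 10 CPM and among the 5 largest changes in either direction. The members, the lists and the tests were chosen with earlier results of these data known.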

Additional observations from a re-analysis of the deposited data

Results flagged for a closer look

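The genotype difference of 5 members had opposite signs in epithelial and mesenchymal cells and differed between them by the interaction test in edgeR. *Lama1* had an interaction log2 fold change of 0.74 (0.33 in epithelial and -0.39 in mesenchymal cells), *Fn1* of 0.38 (0.17 and -0.19), *Itgb8* of 0.33 (0.01 and -0.30), *Itga5* of 0.26 (0.14 and -0.10) and *Col2a1* of -0.39 (-0.14 and 0.27). Adjusted p-values ran from 1.04e-08 for *Fn1* to 0.00116 for *Itga5*. For *Itga5* the difference passed in neither source alone, and for *Itgb8* the epithelial value did not (adjusted p = 0.873). Without the pre-somitic mesoderm-like class the mesenchymal value of *Itga5* was 0.002. Those of *Lama1* (-0.20), *Fn1* (-0.14), *Itgb8* (-0.17) and *Col2a1* (0.31) kept their sign. How far the epithelial values moved with the share of each class among epithelial cells is not given here. By adjusted p the interaction passed for 15.1% of all genes, and how many of these had opposite signs is not given here.

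The signs within classes were mixed. *Fn1* was lower in *Grhl3*-null paraxial mesoderm-like (-0.22, adjusted p = 0.000373) and neuroepithelium-like cells (-0.19, adjusted p = 0.00204), higher in neuromesodermal progenitor-like cells (0.20, adjusted p = 0.00217) and at 0.02 in somitic mesoderm-like cells. *Itgb8* was higher in *Grhl3*-null neuromesodermal progenitor-like (0.26, adjusted p = 0.00887) and paraxial mesoderm-like cells (0.41, adjusted p = 0.0298), against the sign over the whole mesenchyme. *Col2a1* was lower in neuroepithelium-like cells (-0.43, adjusted p = 1.35e-05) and higher in paraxial mesoderm-like (0.26, adjusted p = 0.0151) and gut-like cells (0.35, adjusted p = 0.0461).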

How the results depend on the processing

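The levels by source kept 9 mesenchymal members under every alternative tried and 6 epithelial members under all but resolution 0.8, which gave 5. Calls by genotype depended more on the settings. With at least 2-fold required, 1 member was called in epithelial cells, 1 in mesenchymal cells, 0 in the interaction and 7 class by member pairs, and with no fold minimum 23, 29, 18 and 76, and 14 in surface ectoderm/NPB-like cells. DESeq2 called 1 in that class and 5 pairs. Male cells gave 11 calls in epithelial cells and 6 in the interaction, female cells 7, 5 and 34 pairs. Equal class composition gave 3 in mesenchymal cells and 0 in the interaction. Of alternatives chosen after seeing the data, leaving out the pre-somitic mesoderm-like class gave 3 and 2 (*Lama1* not among the 2). In that mesenchymal fit 3.7% of 15575 genes were called. Adding the unnamed clusters gave 29 pairs. The share of all genes called is not given for the other refits. Changes in their counts thus cannot be read as particular to the members. Leaving out 1 library at a time, where a lone library is assumed to vary like the other genotype, gave 1 to 4 calls in epithelial cells, 3 to 5 in mesenchymal cells, 1 to 2 in the interaction, 2 to 4 in surface ectoderm/NPB-like cells and 12 to 16 pairs. Without *Grhl3*-null 2 there was 1 call in epithelial and 2 in surface ectoderm/NPB-like cells, and without *Grhl3*-null 1 there were 3 in mesenchymal cells.

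Signs turned in 5 cases: *Col4a6* in neuroepithelium-like cells at resolution 0.8 (-0.0603) and in male cells (-0.48), *Col4a5* there in male cells (-0.00882), *Lama4* in mesenchymal male cells (-0.49) and *Col1a2* in paraxial mesoderm-like female cells (-0.88). The turned value of *Col1a2* also met the call rule, in the opposite direction. The causes were not tested. A class was tested within a sex only with at least 50 such cells in every library. Of the values of single called members under alternatives, 326 kept direction and call and 101 kept direction only. Replicate numbers are shared by the genotypes but only number the reactions. Deviations of same-numbered libraries correlated at 0.138 in epithelial and 0.254 in mesenchymal cells over 2 pairs. With a replicate block 4, 6 and 4 members were called in epithelial, mesenchymal and surface ectoderm/NPB-like cells and 17 pairs. Depth limits *Itgb3*, *Lama2*, *Itga2* and *Tnc*, which lay under 1 CPM in both sources.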

Other observations

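The unnamed mesenchymal clusters were not among the classes tested above. In the cluster led by *Nkx2-3*, *Runx1t1* and *Hlx*, 7 of 39 members tested were higher in *Grhl3*-null libraries by the same rule and 1 was lower, where 449 of 12303 genes were called higher and 406 lower. The integrin chains *Itga4* (2.11 and 2.18 CPM in WT, 5.89 and 5.85 CPM in *Grhl3*-null libraries, log2 fold change 1.45, SE 0.21), *Itga8* (6.74 and 8.01 against 17.3 and 16.1 CPM, 1.18, SE 0.12) and *Itga1* (4.69 and 4.50 against 9.41 and 9.45 CPM, 1.04, SE 0.16) were higher, as were *Lama4* (0.93), *Fbn1* (0.79), *Col3a1* (0.68) and *Col4a6* (0.66), and *Itgb8*, a partner of *Itgav*, was lower (9.45 and 7.55 against 4.75 and 4.43 CPM, -0.89, SE 0.17). In all of these the genotypes did not overlap. In this cluster genes induced by dissociation summed to 207 and 200 CPM in WT and 123 and 133 CPM in *Grhl3*-null libraries and the 6 epithelial genes to 765 and 778 against 972 and 1045 CPM, and their part in the differences of the members was not tested. In the cluster led by *Prrx1*, *Hand2* and *Foxf1*, 3 of 39 were higher (127 of 13438 genes higher and 88 lower), *Col3a1* (8.13 and 7.07 against 16.3 and 18.0 CPM, 1.19, SE 0.08), *Col1a2* (0.71) and *Itga4* (0.70), and none was lower. In the cluster led by *Lefty2* and *Ppp1r14a*, whose cells had a median of 16218 UMIs, 2 of 12 were lower (100 of 8128 genes lower and 84 higher), *Nid2* (18.4 and 16.9 against 5.60 and 7.87 CPM, -1.36, SE 0.35) and *Itgb5* (-0.78). These fits were added after seeing the data.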
